A study of Mus musculus with 6 samples.

Results

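The genes described here encode ion channels and ion exchangers of the plasma membrane, endosomes and lysosomes. They were chosen by gene symbol: the potassium channel (Kcn), TRP (Trpv, Trpm, Trpc), chloride channel (Clcn, Clic), Orai and Stim names, the proton channel Hvcn1, and the transporter families Slc4, Slc8, Slc9, Slc12, Slc24 and Slc26. The pattern matched 162 of the 19938 genes tested. Of these, 156 are channels, channel subunits, calcium sensors or transporters. The other 6 only carry such a name: the adapters Slc9a3r1, Slc9a3r2, Slc4a1ap and Trpc4ap, and the opposite-strand genes Kcnd3os and Trpc5os.

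RNA came from bone marrow cells of C57BL/6 mice cultured for 7 days with CSF2 or with CSF1, the macrophage growth factors also called GM-CSF and M-CSF. There were 3 M(CSF2) samples and 3 M(CSF1) samples, each on an Affymetrix Mouse Gene 1.0 ST array, and the comparison asks how the macrophages grown with either factor differ in gene expression. Cells were sorted before lysis, by a marker that the labels do not name. The labels call the samples biological replicates without saying whether each came from its own mouse, so the p-values cover only the spread among these arrays, which may be technical.

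Ion channels and exchangers set the membrane potential, cytosolic calcium, cell volume and the pH of the cytosol and of vesicles. In macrophages the voltage-gated proton channel removes the charge and acid that the NADPH oxidase leaves in the cytosol, potassium channels keep up the driving force for calcium entry, and store-operated channels open when the endoplasmic reticulum is drained of calcium. Chloride/proton and sodium/proton exchangers of endosomes and lysosomes adjust the ions inside the vesicles that the proton pump acidifies.

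Signals are the deposited values on a log2 scale, so a difference of 1 is a 2-fold difference, and every difference is M(CSF2) minus M(CSF1). Array medians lay between 3.91 and 4.00. Arrays of a group correlated at 0.995 to 0.997 across probe sets, and arrays of different groups at 0.954 to 0.959. A gene was called where limma's adjusted p over all genes fell below 0.05. The background level was 3.36, the 95th percentile of the mean signals of 1027 olfactory receptor genes, most of which were assumed to be silent in these cells. A member counted as above background where the mean of either group passed that level. Just inside lay Kcnq3 at 3.38, Slc26a9 at 3.42 and Kcnc2 at 3.42. Just outside lay Slc4a5 at 3.34, Kcnc1 at 3.33 and Kcnj15 at 3.32.

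Of the 162 genes, 34 were called, 21.0% against 27.5% of all genes tested. M(CSF2) cells had 20 of them higher, 12.3% against 11.9% of all genes, and 14 of them lower, 8.64% against 15.6%. The count of higher genes dropped to 12 without M(CSF1) replicate 2. A difference of at least 2-fold was called for 10 members, 6.17% against 7.99% of all genes. The median difference was 0.06 over the members and 0.04 over all genes, and the median size of the difference was 0.13 and 0.15. The 3 arrays of each group did not overlap in 55 members, 34.0% against 38.9% of all genes. These shares lay near or below those over all genes and are no result about the list, so the account below is of single members. Counts per class or gene list below stand against the same 27.5% called, 11.9% higher and 15.6% lower, and no list was tested.

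**Figure D1:**
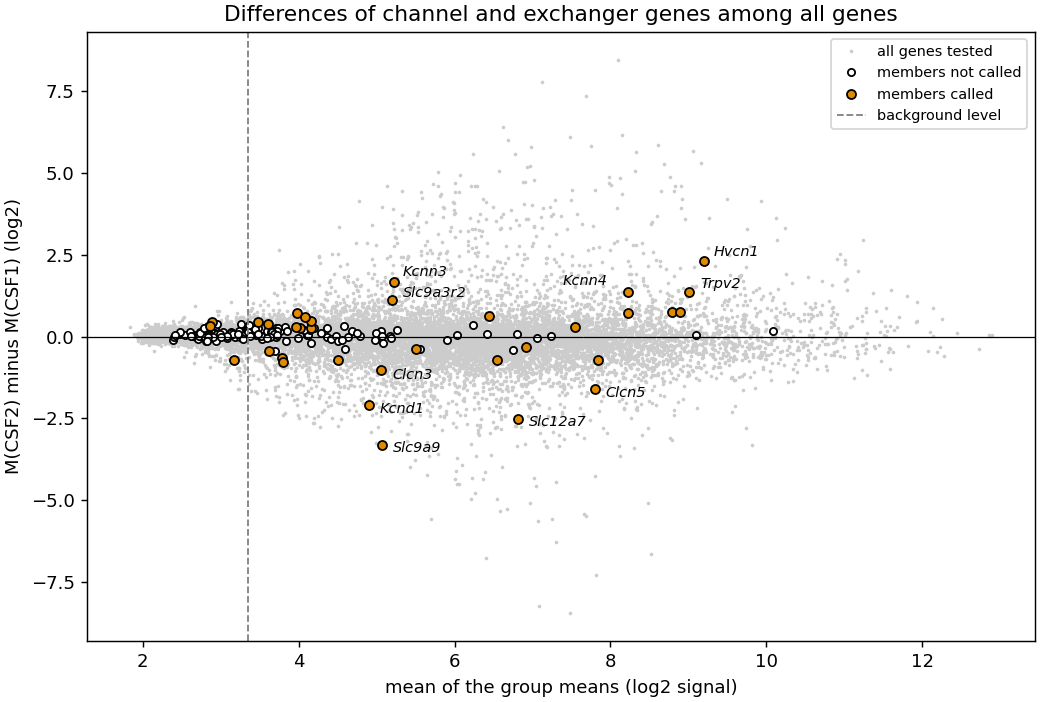
The difference M(CSF2) minus M(CSF1) of each gene (log2, vertical axis) is plotted against the mean of its group means (log2 signal, horizontal axis), with all tested genes in grey, uncalled members as open circles and called members in orange. Most members lie near 0 or at the dim end, while Hvcn1 stands at 2.30 and Slc9a9 at -3.31.

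All 34 called members but Kcnj16 and Kcnf1 lay above background, as did 69 uncalled members, whose differences ran from -0.45 to 0.38. The remaining members, 61 in all with that pair, were at background and differed by -0.14 to 0.43. In 24 members, 12 higher and 12 lower, the call was also made in each of the 6 fits that left out 1 array. That is 14.8% of the members against 20.0% of all genes.

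**Figure D2:**
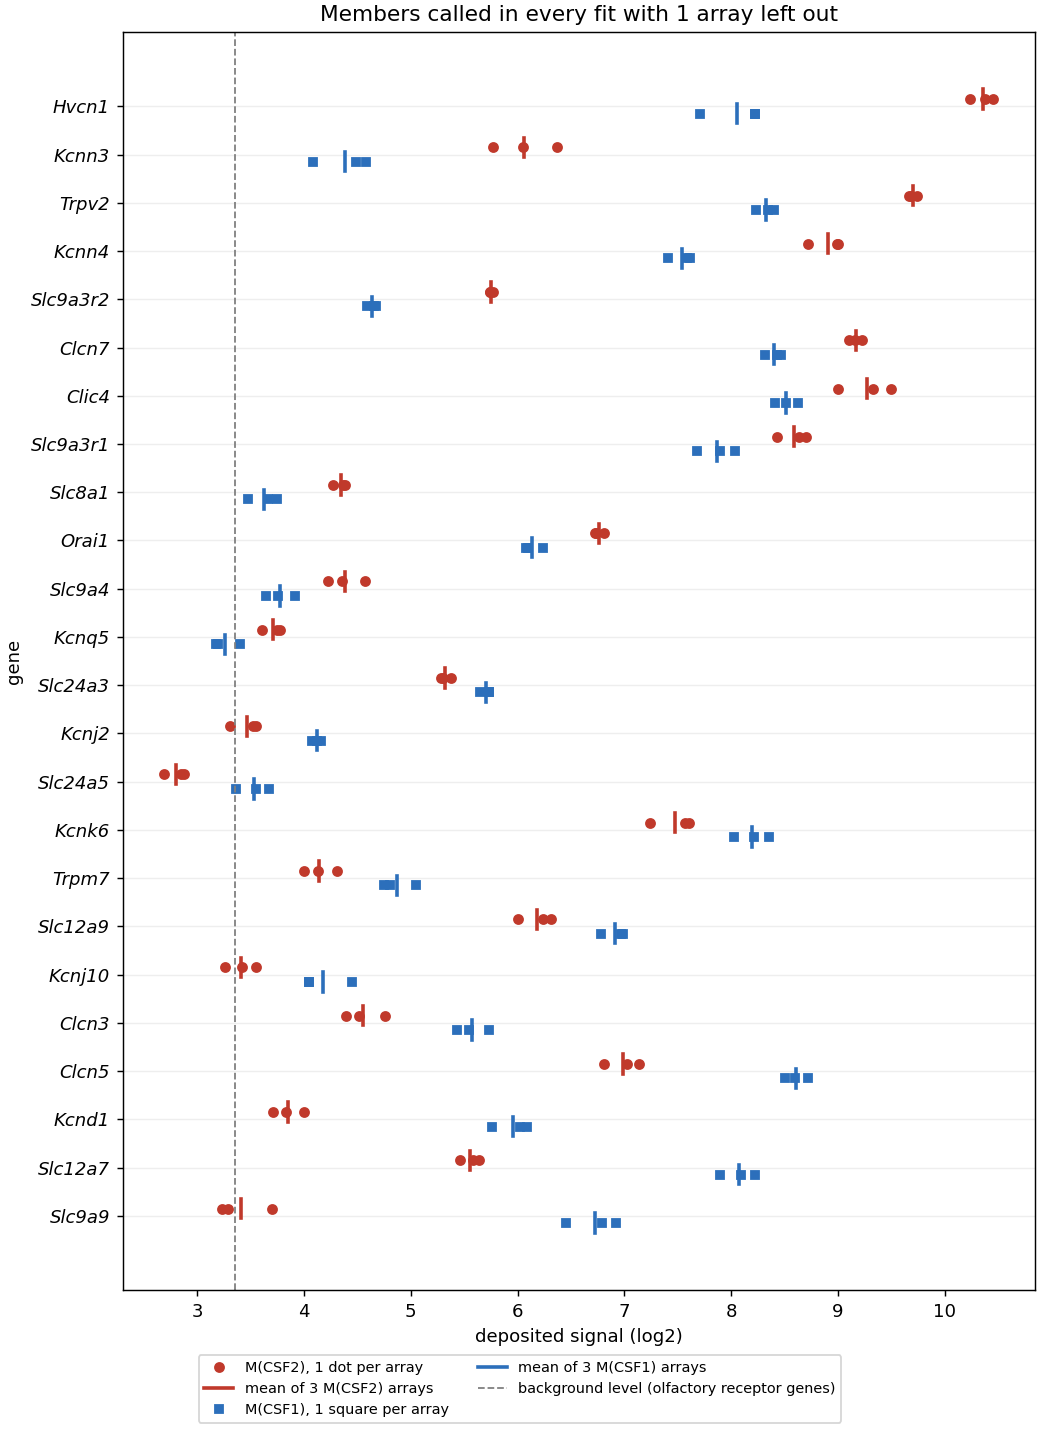
Deposited signals (log2, horizontal axis) of the 24 members called in every fit with 1 array left out, with a dot per M(CSF2) array, a square per M(CSF1) array, bars at the group means and a dashed line at the background level of 3.36. The dots and squares do not overlap in any of these rows, which were chosen by their calls on these same arrays.

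The sequences just upstream of 4 of these genes are shown for a pair of bright channels higher in M(CSF2) cells, Kcnn4 and Trpv2, and for the pair of members with the largest falls, Slc9a9 and Slc12a7. They were picked after the values were seen, and Kcnn3, with a larger difference than either channel and a promoter on record, is not shown. Each run is the 250 bases before the first listed transcript start in RefSeq, build GRCm38.p6, plus strand: chr7:24370013-24370262 for Kcnn4, chr11:62574236-62574485 for Trpv2, chr9:94669642-94669891 for Slc9a9 and chr13:73763410-73763659 for Slc12a7. Trpv2 had 3 starts on record and Slc12a7 2, and only the first listed start of a gene was used. Capitals mark matches, on either strand, to an AP-1 (TGANTCA), STAT (TTCNNNGAA), ETS (GAGGAA), E-box (CACGTG) or GC box (GGGCGG) motif.
Kcnn4: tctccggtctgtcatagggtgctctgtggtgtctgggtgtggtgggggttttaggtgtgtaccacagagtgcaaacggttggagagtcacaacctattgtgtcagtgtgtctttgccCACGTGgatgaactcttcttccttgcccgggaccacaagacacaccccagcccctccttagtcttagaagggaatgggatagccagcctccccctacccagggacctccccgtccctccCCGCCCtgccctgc
Trpv2: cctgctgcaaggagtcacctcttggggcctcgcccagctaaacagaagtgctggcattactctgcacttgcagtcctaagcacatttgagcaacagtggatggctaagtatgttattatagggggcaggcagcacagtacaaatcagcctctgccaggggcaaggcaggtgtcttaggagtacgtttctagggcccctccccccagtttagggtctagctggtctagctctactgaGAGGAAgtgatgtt
Slc9a9: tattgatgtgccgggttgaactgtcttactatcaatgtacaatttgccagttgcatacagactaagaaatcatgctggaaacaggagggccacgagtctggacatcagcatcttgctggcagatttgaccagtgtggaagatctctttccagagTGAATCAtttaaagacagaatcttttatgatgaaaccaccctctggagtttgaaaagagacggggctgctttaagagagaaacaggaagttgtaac
Slc12a7: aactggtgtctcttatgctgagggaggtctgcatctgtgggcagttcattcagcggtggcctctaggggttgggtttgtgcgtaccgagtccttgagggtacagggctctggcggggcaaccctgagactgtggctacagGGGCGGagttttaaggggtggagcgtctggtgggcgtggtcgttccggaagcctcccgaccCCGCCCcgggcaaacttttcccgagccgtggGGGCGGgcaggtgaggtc
The Kcnn4 run held an E-box starting at position -133 from the transcript start and a GC box at -14, read on the minus strand. The Trpv2 run held an ETS motif at -14, and the Slc9a9 run an AP-1 motif at -96. The Slc12a7 run held 3 GC boxes, at -110, -49 and -18, with the middle one on the minus strand, and its GC content was 63.6%, against 42.8% in the Slc9a9 run. No matches overlapped. Among 27025 genes with such a sequence, 6.87% held the AP-1 motif, 7.18% the STAT motif, 23.1% the ETS motif, 6.05% the E-box and 32.9% the GC box. Sequences were on record for 20 of the 24 members. The AP-1 motif stood in 0 of 10 higher and 2 of 10 lower genes, the STAT motif in 2 and 0, the ETS motif in 3 and 2, the E-box in 2 and 3, and the GC box in 5 and 7. Only the letters given above were searched, so a site of the same family with other letters, as for ETS, is neither marked nor counted. A match describes letters and is not a measured binding site.

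The proton channel was the member with the largest rise. Hvcn1, the voltage-gated channel that lets protons leave the cytosol, read 10.37, 10.24 and 10.45 in M(CSF2) cells, against 8.22, 8.22 and 7.71 in M(CSF1) cells. All M(CSF2) arrays lay above all M(CSF1) arrays. The group means were 10.35 ± 0.11 and 8.05 ± 0.30 (SD, n = 3 each), a difference of 2.30 (SE 0.15), or 4.94-fold (95% interval 3.89 to 6.27, limma adjusted p = 1.93e-05).

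Of the 9 measured Slc9-named genes 3 were called higher and 1 lower, 44.4% called against 27.5% of all genes. Of the higher ones, 2 are adapters that move no ions. Among the 7 exchangers, 1 was higher, Slc9a4, and 1 lower, Slc9a9. Slc9a9, a sodium/proton exchanger of late recycling endosomes, had the largest difference of all members. It read 3.29, 3.23 and 3.71 in M(CSF2) cells, against 6.92, 6.79 and 6.45 in M(CSF1) cells. Thus 2 of the 3 M(CSF2) arrays were at background while all M(CSF1) arrays were well above it. The difference was -3.31 (SE 0.16), 9.94 times higher in M(CSF1) cells (95% interval 7.65 to 12.9, limma adjusted p = 5.42e-06).

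Both adapters that tether sodium/proton exchangers to the cortical cytoskeleton were higher in M(CSF2) cells. Slc9a3r2 read 5.74, 5.74 and 5.77 in M(CSF2) cells, against 4.68, 4.66 and 4.59 in M(CSF1) cells, a 2.16-fold difference (limma adjusted p = 1.21e-05). Slc9a3r1, which encodes the adapter also known as EBP50, read 8.43, 8.70 and 8.63 in M(CSF2) cells, against 8.03, 7.89 and 7.68 in M(CSF1) cells (1.64-fold, limma adjusted p = 0.0022). Slc9a4, a plasma membrane exchanger best known in gastric epithelium, was higher too, at 4.57, 4.22 and 4.36 in M(CSF2) cells, against 3.65, 3.76 and 3.92 in M(CSF1) cells (difference 0.61, limma adjusted p = 0.00477). Groups did not overlap in any of these 3 genes.

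The 4 Slc9 genes above background without a call, Slc9a2, Slc9a5, Slc9a7 and Slc9a8, differed by -0.09 to 0.35. Among them Slc9a8, an exchanger of the Golgi and endosomes, averaged 6.47 ± 0.03 in M(CSF2) cells and 6.38 ± 0.17 in M(CSF1) cells (SD, n = 3 each, 95% interval of the difference -0.13 to 0.31, limma adjusted p = 0.561). For Slc9a2 the adjusted p was 0.0563 with a difference of 0.35, and 0.0312 without M(CSF2) replicate 1.

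Of the 10 Slc4 genes, most of which carry bicarbonate across membranes, 1 was called in each direction, and none of the 7 above background differed by 2-fold. Slc4a2, the widespread chloride/bicarbonate exchanger, read 6.79, 6.62 and 6.82 in M(CSF2) cells, against 7.19, 7.07 and 6.97 in M(CSF1) cells (difference -0.33, limma adjusted p = 0.0273). The 5 uncalled genes above background, Slc4a1, Slc4a1ap, Slc4a3, Slc4a8 and Slc4a11, differed by -0.08 to 0.25. Slc4a1, the red cell anion exchanger, averaged 4.15 in M(CSF2) cells and 4.10 in M(CSF1) cells.

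The 11 anion exchangers of the Slc26 family had a single call, Slc26a6, which exchanges chloride for bicarbonate or oxalate. It read 4.17, 4.11 and 4.16 in M(CSF2) cells, against 3.93, 3.88 and 3.86 in M(CSF1) cells (difference 0.25, limma adjusted p = 0.0212). Slc26a2, a sulphate transporter, averaged 5.37 ± 0.16 in M(CSF2) cells and 5.74 ± 0.21 in M(CSF1) cells (SD, n = 3 each), a difference of -0.37 that missed the threshold (limma adjusted p = 0.0753). Slc26a9, Slc26a10 and Slc26a11 were also above background and differed by -0.10 to 0.12.

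**Figure D3:**
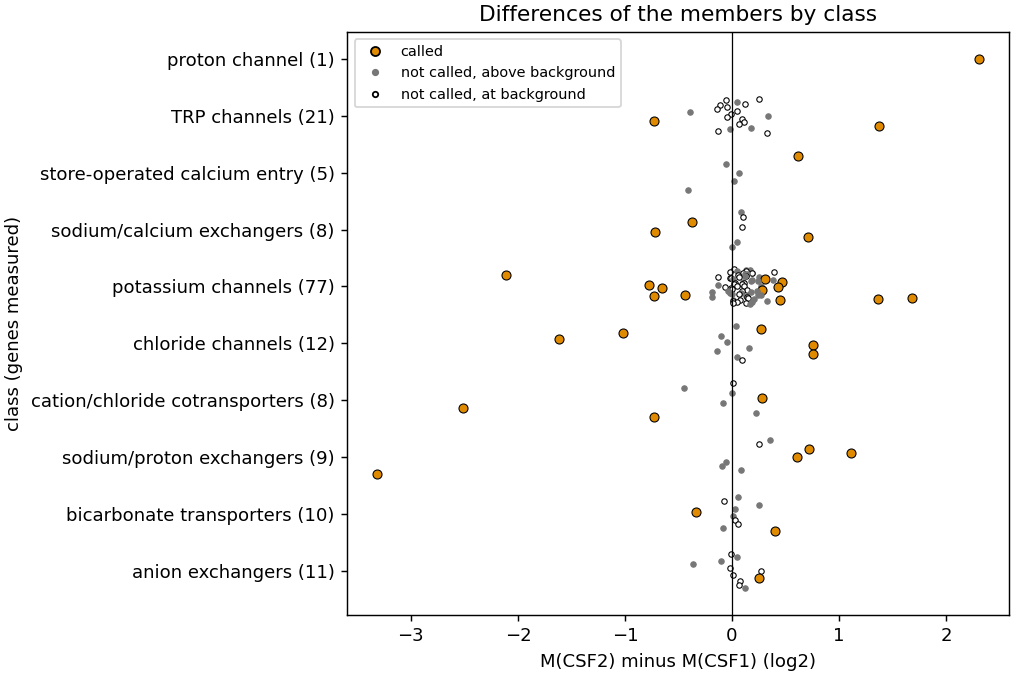
The difference M(CSF2) minus M(CSF1) (log2, horizontal axis) of each of the 162 members by class (vertical axis, with the number of genes measured), in orange where called, grey where uncalled above background and white where uncalled at background. Adapters and opposite-strand genes stand in the class of their name, and classes with 2 or more calls hold called members on both sides of 0.

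Among genes of calcium entry and extrusion, a TRP channel and an Orai channel rose while both calcium sensors stayed without a call. Trpv2, a cation channel of the plasma membrane and phagosome in macrophages, read 9.67, 9.69 and 9.74 in M(CSF2) cells, against 8.35, 8.40 and 8.23 in M(CSF1) cells. The arrays of a group lay close together and far from the other group. The difference was 1.37 (SE 0.07), or 2.59-fold (95% interval 2.30 to 2.91, limma adjusted p = 7.87e-06). Trpm7, a channel fused to a kinase that carries magnesium and calcium, went the other way, at 4.13, 4.00 and 4.31 in M(CSF2) cells, against 4.81, 5.05 and 4.75 in M(CSF1) cells (difference -0.73, limma adjusted p = 0.00198).

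The other 19 TRP-named genes were not called, and 14 of the 21 were at background. Above it, Trpm2, Trpm4, Trpv3, Trpv4 and the adapter Trpc4ap differed by -0.39 to 0.34. Trpm4, a calcium-activated sodium channel, averaged 6.41 ± 0.18 in M(CSF2) cells and 6.07 ± 0.19 in M(CSF1) cells (SD, n = 3 each, limma adjusted p = 0.089). Trpm2, a channel opened by ADP-ribose and oxidative stress, averaged 4.40 ± 0.15 in M(CSF2) cells and 4.79 ± 0.28 in M(CSF1) cells (SD, n = 3 each, limma adjusted p = 0.0984). Without M(CSF1) replicate 3 the Trpm2 difference was -0.55 and was called (limma adjusted p = 0.0141). Trpv4, a channel opened by swelling and warmth, differed by -0.02 (95% interval -0.17 to 0.13).

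Orai1, the pore of the store-operated channel, read 6.73, 6.81 and 6.73 in M(CSF2) cells, against 6.10, 6.08 and 6.24 in M(CSF1) cells. The groups did not overlap, and the difference was 0.62 (SE 0.07), or 1.54-fold (95% interval 1.36 to 1.73, limma adjusted p = 0.00049). The paralogous pores had no call: Orai2 differed by -0.05 (95% interval -0.26 to 0.16), and by -0.15 on a dimmer probe set, and Orai3 by 0.07 (-0.18 to 0.32). Stim1, the sensor that opens Orai1 when stores empty, differed by 0.01 (-0.15 to 0.18). Stim2, the sensor of small drops in store calcium, averaged 6.54 ± 0.19 in M(CSF2) cells and 6.95 ± 0.22 in M(CSF1) cells (SD, n = 3 each, limma adjusted p = 0.0659). Its difference was -0.41, and -0.53 without M(CSF1) replicate 3, where it was called (limma adjusted p = 0.0275).

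Sodium/calcium exchangers, which pump calcium out at the cost of the sodium gradient, split likewise. Slc8a1 read 4.37, 4.28 and 4.38 in M(CSF2) cells, against 3.66, 3.75 and 3.47 in M(CSF1) cells (1.64-fold, limma adjusted p = 0.00063). A dimmer probe set of Slc8a1 was at background on all arrays, at 2.40 in M(CSF2) cells and 2.32 in M(CSF1) cells on average. The potassium-dependent exchanger Slc24a3 was lower in M(CSF2) cells, at 5.30, 5.29 and 5.38, against 5.73, 5.73 and 5.64 in M(CSF1) cells (difference -0.38, limma adjusted p = 0.00419). Slc24a5, known from melanosomes, was at background on all M(CSF2) arrays, at 2.69, 2.88 and 2.85, against 3.55, 3.68 and 3.36 in M(CSF1) cells, so its signal was at least 1.13-fold lower in M(CSF2) cells (limma adjusted p = 0.00112). Slc24a1, Slc8a2 and Slc8a3, the 3 uncalled genes above background, differed by 0.00 to 0.09.

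Potassium channels made up 77 of the members, and 33 of them were at background. Those called were 7 higher and 5 lower in M(CSF2) cells, 15.6% of the class against 27.5% of all genes. The calcium-activated channels of small and intermediate conductance, which open when calmodulin on the channel binds calcium, held the 2 largest rises. Kcnn4, the intermediate-conductance channel of immune cells and red cells, read 9.0, 8.72 and 8.99 in M(CSF2) cells, against 7.61, 7.41 and 7.59 in M(CSF1) cells. Kcnn3, of small conductance, read 5.77, 6.05 and 6.37 in M(CSF2) cells, against 4.58, 4.09 and 4.49 in M(CSF1) cells. Neither gene's groups overlapped. Kcnn4 was 2.58-fold higher (95% interval 2.18 to 3.05, limma adjusted p = 4.66e-05) and Kcnn3 3.20-fold (2.40 to 4.27, limma adjusted p = 0.00028). The paralog Kcnn1 averaged 4.06 in M(CSF2) cells and 4.25 in M(CSF1) cells and was not called.

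Kcnd1, a rapidly inactivating voltage-gated channel, fell furthest in the class. It read 4.00, 3.84 and 3.71 in M(CSF2) cells, against 6.02, 6.09 and 5.76 in M(CSF1) cells, a difference of -2.11 (SE 0.11). That is 4.31 times higher in M(CSF1) cells (95% interval 3.59 to 5.18, limma adjusted p = 8.03e-06). The leak channel Kcnk6 was lower as well, at 7.61, 7.24 and 7.57 in M(CSF2) cells, against 8.35, 8.21 and 8.03 in M(CSF1) cells (difference -0.72, limma adjusted p = 0.00349). Groups did not overlap in either gene.

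The inward rectifiers Kcnj2 and Kcnj10, which hold the resting potential near that of potassium, were dim and both lower in M(CSF2) cells. Kcnj2 read 3.31, 3.55 and 3.53 in M(CSF2) cells, against 4.07, 4.16 and 4.12 in M(CSF1) cells (difference -0.66, limma adjusted p = 0.000763). Kcnj10 read 3.42, 3.26 and 3.55 in M(CSF2) cells, against 4.05, 4.05 and 4.45 in M(CSF1) cells (difference -0.77, limma adjusted p = 0.00319). For each, 1 M(CSF2) array was at background. Kcnj8 and Kcnj16 of the same gene family were called higher, though not in every fit with 1 array left out. Kcnq5, a slow voltage-gated channel, was higher, at 3.78, 3.75 and 3.61 in M(CSF2) cells, against 3.18, 3.19 and 3.40 in M(CSF1) cells, of which 2 arrays were at background (limma adjusted p = 0.00662).

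The voltage-gated channel Kcna3, known from lymphocytes and macrophages, read 5.89, 6.15 and 6.15 in M(CSF2) cells, against 6.09, 5.95 and 5.99 in M(CSF1) cells. The groups overlapped, and the difference was 0.05 (95% interval -0.17 to 0.27, limma adjusted p = 0.755). Kcnk13, a leak channel studied in microglia, averaged 5.14 ± 0.08 in M(CSF2) cells and 4.97 ± 0.11 in M(CSF1) cells (SD, n = 3 each, difference 0.17, 95% interval -0.02 to 0.37, limma adjusted p = 0.183). With these, 34 potassium channel genes above background were not called, and they differed by -0.19 to 0.38. The others were Kcna2, Kcna7, Kcna10, Kcnc2, Kcnc4, Kcnd3os, Kcne1l, Kcng1, Kcng2, Kcng3, Kcng4, Kcnh1, Kcnh2, Kcnh4, Kcnj4, Kcnj9, Kcnj11, Kcnj14, Kcnk1, Kcnk2, Kcnk3, Kcnk4, Kcnk7, Kcnk12, Kcnk15, Kcnk16, Kcnn1, Kcnq1, Kcnq3, Kcns3, Kcnt1 and Kcnv2.

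Of the 12 chloride channel genes, 3 were higher and 2 lower in M(CSF2) cells, 41.7% called against 27.5% of all genes. Both lower genes encode chloride/proton exchangers of endosomes. Clcn5 read 7.03, 6.81 and 7.13 in M(CSF2) cells, against 8.72, 8.60 and 8.50 in M(CSF1) cells, which made it 3.06 times higher in M(CSF1) cells (95% interval 2.59 to 3.62, limma adjusted p = 1.93e-05). Clcn3 read 4.51, 4.39 and 4.76 in M(CSF2) cells, against 5.74, 5.43 and 5.54 in M(CSF1) cells, 2.02 times higher in M(CSF1) cells (1.67 to 2.45, limma adjusted p = 0.000454). Neither overlapped between groups.

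Clcn7, the chloride/proton exchanger of lysosomes and of the osteoclast's ruffled border, was higher in M(CSF2) cells, at 9.16, 9.10 and 9.23, against 8.43, 8.46 and 8.31 in M(CSF1) cells. The difference was 0.76 (SE 0.07), or 1.70-fold (95% interval 1.50 to 1.91, limma adjusted p = 0.000174). Clic4, an intracellular chloride channel family protein that also moves to the nucleus, read 9.33, 9.0 and 9.49 in M(CSF2) cells, against 8.63, 8.51 and 8.41 in M(CSF1) cells (1.69-fold, limma adjusted p = 0.00357).

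Clic1, of the same family, was bright in both and not called, at 10.16, 10.16 and 10.18 in M(CSF2) cells, against 10.15, 9.93 and 9.92 in M(CSF1) cells (difference 0.16, 95% interval -0.03 to 0.35, limma adjusted p = 0.208). Without M(CSF1) replicate 1 its difference was 0.24, with an adjusted p of 0.0477. Clcn1, Clcn4, Clcn6, Clic3 and Clic5 were the other uncalled genes above background, and with Clic1 they differed by -0.14 to 0.16.

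Cation/chloride cotransporters, which regulate cell volume and cytosolic chloride, had 2 of 8 members lower and 1 higher in M(CSF2) cells. That is 37.5% called, against 27.5% of all genes. Slc12a7, which carries potassium and chloride out of cells, read 5.63, 5.46 and 5.58 in M(CSF2) cells, against 8.23, 8.10 and 7.89 in M(CSF1) cells. The groups lay far apart, with a difference of -2.52 (SE 0.10), 5.72 times higher in M(CSF1) cells (95% interval 4.86 to 6.73, limma adjusted p = 2.23e-06). Slc12a9, whose transported ion is not settled, read 6.31, 6.00 and 6.24 in M(CSF2) cells, against 6.79, 6.98 and 6.97 in M(CSF1) cells (difference -0.73, limma adjusted p = 0.00124). Slc12a4, the widespread potassium/chloride cotransporter, read 7.78, 7.55 and 7.73 in M(CSF2) cells, against 7.38, 7.45 and 7.38 in M(CSF1) cells (difference 0.28, limma adjusted p = 0.0364).

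Slc12a2, which brings sodium, potassium and chloride into cells, read 3.66, 3.08 and 3.66 in M(CSF2) cells, against 4.26, 3.93 and 3.57 in M(CSF1) cells. These overlapped, and the difference of -0.45 had a 95% interval of -0.94 to 0.04 (limma adjusted p = 0.171). Slc12a3, Slc12a5 and Slc12a8, also above background, were not called.

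For 10 called members the call did not hold in every fit with 1 array left out. Slc12a4 lost it without any M(CSF1) array and without M(CSF2) replicates 1 and 3, with adjusted p of 0.0796 to 0.110 there. Leaving out the same 5 arrays in turn ended the calls of Clcn2 (0.0569 to 0.0958) and Kcnj8 (0.0624 to 0.131). Clcn2, an inwardly rectifying chloride channel, averaged 4.30 in M(CSF2) cells and 4.03 in M(CSF1) cells, and Kcnj8, a pore of ATP-sensitive potassium channels, 4.11 in M(CSF2) cells and 3.83 in M(CSF1) cells.

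The voltage-gated channel Kcnh3, at 4.39 in M(CSF2) cells and 3.92 in M(CSF1) cells, lost its call without any of 5 arrays, all but M(CSF2) replicate 3 (adjusted p 0.0564 to 0.107). Slc4a2 lost it without M(CSF1) replicates 1 and 2 and M(CSF2) replicates 1 and 2 (0.0639 to 0.0913), as did Slc4a9, at 3.81 in M(CSF2) cells and 3.42 in M(CSF1) cells (0.0847 to 0.0947). Kcnk5, an acid-sensitive leak channel, averaged 3.41 in M(CSF2) cells and 3.84 in M(CSF1) cells and lost its call without replicates 1 and 3 of either group (0.0779 to 0.0962). Slc26a6 lost it without M(CSF1) replicate 2 and M(CSF2) replicates 1 and 3 (0.0551 to 0.0651). Kcnj16 and Kcnf1, the called pair at background, lost theirs without M(CSF1) replicates 1 and 2 and M(CSF2) replicates 2 and 3, with adjusted p up to 0.0707 and 0.113. None of the 10 differed by more than 0.47 in size.

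Genes of endosomes, lysosomes and the Golgi were also read together, with the partner genes of that compartment. This group of 15 was put together after the values had been seen and supports no claim of its own. Of the 15, 7 were called, from which nothing is read, and the share over all genes was 27.5%. Clcn7, its beta subunit Ostm1 and the lysosomal calcium channel Mcoln1 were higher in M(CSF2) cells, and Clcn3, Clcn5, Slc9a9 and the endosomal cation channel Tpcn1 were lower. Tpcn1 read 6.08, 5.79 and 6.12 in M(CSF2) cells, against 8.70, 8.60 and 8.39 in M(CSF1) cells, 5.92 times higher in M(CSF1) cells (95% interval 4.89 to 7.17, limma adjusted p = 4.17e-06). Mcoln1 averaged 8.77 ± 0.09 in M(CSF2) cells and 8.19 ± 0.04 in M(CSF1) cells (SD, n = 3 each, limma adjusted p = 0.000642). Ostm1 averaged 7.47 in M(CSF2) cells and 7.01 in M(CSF1) cells (limma adjusted p = 0.0202), and lost its call without M(CSF1) replicate 2 and M(CSF2) replicates 1 and 3 (0.0569 to 0.0732). The other 8, Clcn4, Clcn6, Slc9a7, Slc9a8, Mcoln2, Mcoln3, Tpcn2 and Tmem175, were not called.

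**Figure D4:**
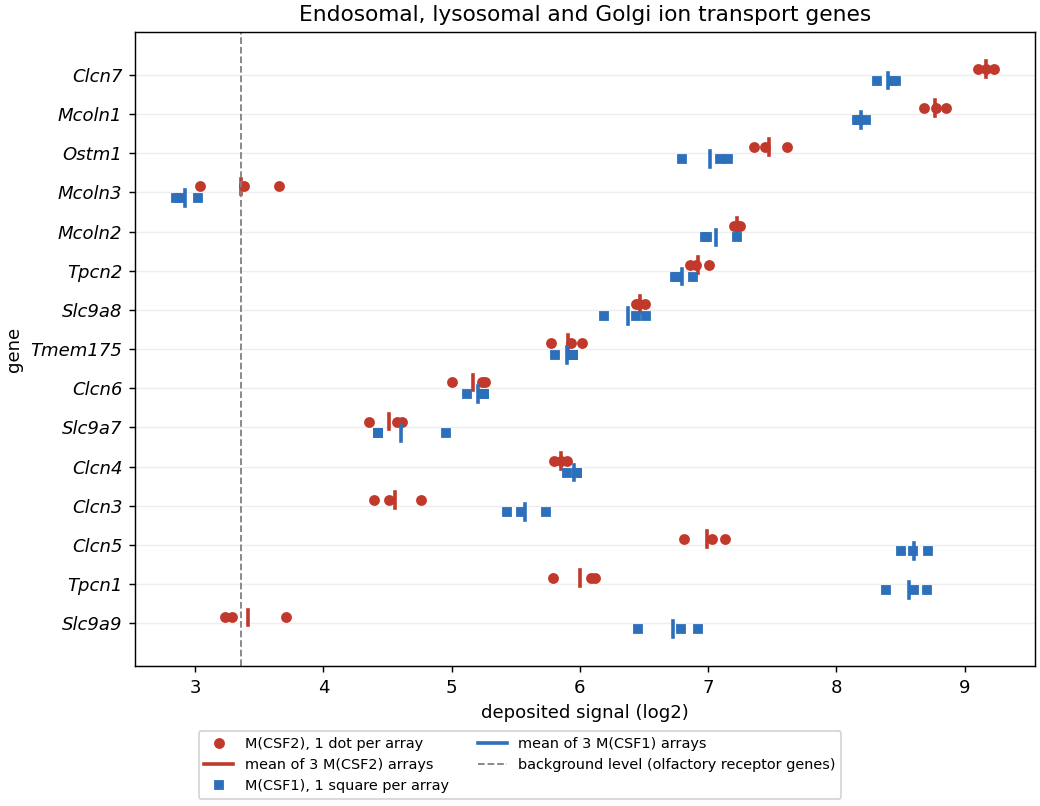
Deposited signals (log2, horizontal axis) of 15 endosomal, lysosomal and Golgi genes ordered by difference, with a dot per M(CSF2) array, a square per M(CSF1) array, bars at the group means and a dashed line at the background level. Clcn7 and Mcoln1 lie further right in M(CSF2) cells, while Clcn3, Clcn5, Tpcn1 and Slc9a9 lie further left.

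A list of 101 partner genes that work with these channels and exchangers held 94 that were measured, of which 13 were higher and 11 lower in M(CSF2) cells, 25.5% against 27.5% of all genes. Carbonic anhydrases, which supply protons and bicarbonate to the exchangers, included the largest differences, though 11 of the 13 were not called. Car4, anchored at the cell surface, read 9.85, 9.25 and 9.61 in M(CSF2) cells, against 4.20, 4.24 and 3.50 in M(CSF1) cells (48.2-fold, limma adjusted p = 2.29e-06). Car2, in the cytosol, read 8.95, 8.79 and 9.08 in M(CSF2) cells, against 5.73, 5.37 and 4.71 in M(CSF1) cells (12.7-fold, limma adjusted p = 1.95e-05). The groups lay far apart in both genes.

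Of the 12 kinases and exchanger partners, 3 were higher and 2 lower in M(CSF2) cells, 41.7% called against 27.5% of all genes. Wnk1, a chloride-sensing kinase that controls the Slc12 cotransporters, read 7.73, 7.50 and 7.92 in M(CSF2) cells, against 9.53, 9.34 and 9.19 in M(CSF1) cells (difference -1.64, limma adjusted p = 5.73e-05), while a dimmer probe set near background differed by -0.19 (limma adjusted p = 0.130). Stk39, a kinase that WNK kinases activate, went the other way, averaging 4.73 ± 0.17 in M(CSF2) cells and 3.66 ± 0.11 in M(CSF1) cells (SD, n = 3 each, limma adjusted p = 0.000197). The brighter kinase Oxsr1 of the same list averaged 6.72 in M(CSF2) cells and 6.88 in M(CSF1) cells and was not called (limma adjusted p = 0.290). Slc9b2, a sodium/proton antiporter known from osteoclasts, averaged 4.03 ± 0.38 in M(CSF2) cells and 5.55 ± 0.25 in M(CSF1) cells (SD, n = 3 each, limma adjusted p = 0.000855). Ahcyl1, a regulator of bicarbonate cotransport and of store calcium release, was higher by 0.58, and the kinase Wnk2 by 0.48.

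Calcium stores and pumps had 2 of 14 genes higher and 3 lower, 35.7% called against 27.5% of all genes. Atp2a3, a pump that fills the endoplasmic reticulum with calcium, averaged 6.43 ± 0.03 in M(CSF2) cells and 5.42 ± 0.10 in M(CSF1) cells (SD, n = 3 each, limma adjusted p = 4.3e-05). Its paralog Atp2a2 was lower by a smaller step, at 9.03 in M(CSF2) cells and 9.38 in M(CSF1) cells (limma adjusted p = 0.0408), and lost the call without any of 5 arrays, all but M(CSF2) replicate 3 (0.0637 to 0.144). The Golgi calcium pump Atp2c1 differed by -0.62. The plasma membrane calcium pump Atp2b1 differed by -0.43, lost without replicates 1 and 2 of either group (0.0556 to 0.0777). The store release channel Itpr2 differed by 0.52, lost without any of 5 arrays, all but M(CSF2) replicate 2 (0.0876 to 0.139).

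The sodium pump had 3 of 9 measured genes higher, 33.3% against 11.9% of all genes, and 0 lower, against 15.6% of all genes. The higher genes were the beta subunit Atp1b1, at 5.59, 4.46 and 5.07 in M(CSF2) cells against 3.63, 3.48 and 3.88 in M(CSF1) cells, and the regulators Fxyd2 and Fxyd5, which differed by 0.82 and 0.78. Among 23 other chloride channel genes, Lrrc8d, a subunit of the volume-regulated anion channel, was 2.37-fold higher in M(CSF2) cells (limma adjusted p = 9.61e-05). The other subunits of that channel, Lrrc8a, Lrrc8b, Lrrc8c and Lrrc8e, were not called. Lrrc8a differed by 0.04 and Lrrc8c, the brightest, by 0.34 (limma adjusted p = 0.737 and 0.0649). Ttyh3 and the lipid scramblase Ano6 were lower, with differences of -0.93 and -0.88. Ano8 and Ano10 differed by -0.31 and -0.27 and lost their calls without any of 5 arrays, all but M(CSF2) replicate 1 for Ano8 and all but M(CSF1) replicate 3 for Ano10, where adjusted p reached 0.152 and 0.135. Of 15 potassium channel subunits 1 was called, Kcnab2, a cytosolic beta subunit of voltage-gated channels, which averaged 8.84 ± 0.09 in M(CSF2) cells and 9.50 ± 0.01 in M(CSF1) cells (SD, n = 3 each, limma adjusted p = 0.000344). Piezo1, a channel opened by membrane stretch, had 3 probe sets with differences of -0.17, -0.16 and -0.12, none called.

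**Figure D5:**
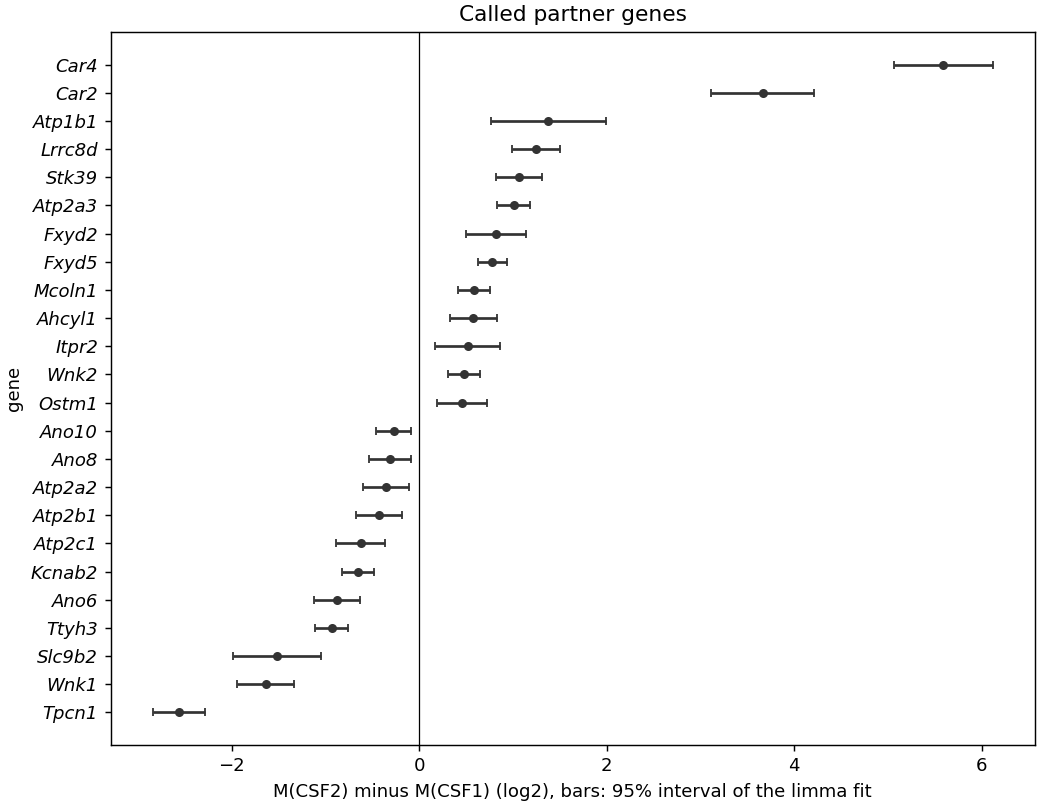
The difference M(CSF2) minus M(CSF1) (log2, horizontal axis) of the 24 called partner genes, with bars for the 95% interval of the limma fit. Car4 at 5.59 and Car2 at 3.67 stand apart on the right, and Tpcn1 at -2.57 on the left.

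All 8 macrophage markers were above background in both groups. Csf1r averaged 10.41 in M(CSF2) cells and 9.81 in M(CSF1) cells, and Adgre1 10.70 in M(CSF2) cells and 11.88 in M(CSF1) cells. Among markers of other cells, 2 of 8 neutrophil genes were called higher, and the log2 of their summed signal was 8.34 to 9.06 on M(CSF2) arrays and 7.18 to 7.35 on M(CSF1) arrays, with S100a8 averaging 8.46 in M(CSF2) cells and 6.09 in M(CSF1) cells and Ly6g at background in both. The other called neutrophil gene, Ltf, was at background on all arrays, and S100a9 averaged 4.21 in M(CSF2) cells and 4.55 in M(CSF1) cells without a call. Stromal genes had 1 of 6 higher, Dcn, and summed to 7.72 to 8.15 in M(CSF2) cells and 6.88 to 6.93 in M(CSF1) cells. Osteoclast genes had 3 of 6 higher and 2 lower, 83.3% called against 27.5% of all genes. Dcstamp, among the higher ones, stood at 10.33 in M(CSF2) cells and 5.63 in M(CSF1) cells, and Calcr at background. All 5 osteoclast calls, the 2 lower ones included, held in each fit with 1 array left out. The osteoclast sums were 11.76 to 12.14 in M(CSF2) cells and 11.92 to 12.18 in M(CSF1) cells.

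No erythroid gene of 5 and no T, NK or B cell gene of 6 was called. The erythroid sums were 5.90 to 6.01 in M(CSF2) cells and 5.96 to 6.07 in M(CSF1) cells, and the lymphoid sums 5.74 to 5.92 in M(CSF2) cells and 5.74 to 5.98 in M(CSF1) cells. The mast cell and basophil genes, with 1 of 8 called, summed to 5.98 to 6.00 in M(CSF2) cells and 5.87 to 5.98 in M(CSF1) cells, and the dendritic cell genes, with 1 of 6, to 5.81 to 5.88 in M(CSF2) cells and 5.68 to 5.83 in M(CSF1) cells. Those 2 calls, Mcpt8 and Clec9a, were of genes at background on all arrays. Mcpt8 lost its call without any of 5 arrays, all but M(CSF2) replicate 3 (adjusted p 0.0595 to 0.157), and Clec9a without M(CSF1) replicates 2 and 3 and M(CSF2) replicate 3 (0.0504 to 0.0770). The part of such cells in the differences above was not tested, and in these bulk samples fewer cells of a type and less RNA per cell cannot be told apart.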

How the data were processed

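Total RNA of 3 M(CSF2) and 3 M(CSF1) samples was measured on 1-colour Affymetrix Mouse Gene 1.0 ST arrays. The deposited table holds 1 value per probe set and array on a log2 scale, judged from its range of 1.48 to 13.27, and the submitters' processing notes name MAS5. Beyond that name, the summary method, background correction and normalization are not described in the sources used here. A log2 difference taken near the background may misstate the change in RNA, and without knowing these steps the direction cannot be told. The number of arrays limits the precision.

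Of 28941 probe sets, 21789 named 1 gene in the platform annotation, 1621 named several and 5531 were unnamed here. For each of 19938 genes the single-gene probe set with the highest mean was used. Groups were compared with limma 3.58.1 in R 4.3.3 (lmFit, eBayes, 2-sided), with Benjamini-Hochberg adjustment over all genes and no filter. The fit was tested on simulated data with independent normal noise. Such data lack the identical values that recur across the arrays here, so the test does not cover them. Promoter sequences are those of RefSeq, build GRCm38.p6.

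The members, gene lists and tests were chosen with earlier results of these data known. Every called member above background is named, with each array's value for up to 4 per class and direction, then 1 bright member per class and the uncalled ones above background. From the partner lists every called gene is named. Some genes that the symbol pattern would match are not reported here.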

Additional observations from a re-analysis of the deposited data

How the results depend on the processing

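No called member changed direction under any of the 14 alternative fits, and 24 of the 34 kept their call in each alternative that tested them. The number of called members was 30 with arrays centred on their medians, 32 after quantile normalization, 36 with an intensity trend, and 34 both with robust variance and with all probe sets of a gene averaged. It was 35 without genes at background and 25 without genes below the median gene, a filter that removes dim members from the test and left 12 higher ones. Leaving out 1 array in turn gave 25 to 37 called members, 12 to 22 of them higher and 12 to 15 lower, and 4254 to 5490 called genes in all. With the replicate block 28 members were called, 15 higher and 13 lower, and 5072 genes against 5488. Deviations of same-numbered arrays correlated at 0.00, -0.04 and -0.25, so the numbers were not taken to pair the samples. Of 69 uncalled members above background, 23 changed sign and 13 were called under some alternative. At the 99th percentile of the olfactory receptor genes, 4.22, 59 members were above background in place of 101, and the other definitions gave 94 to 104. Another background correction was not run, as only summarised values were at hand.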

Other observations

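Identical values recurred across arrays. In 76 of the 162 members at least 2 arrays held exactly the same value, as in 6980 of 19938 genes, and Slc8a3 held 3.63 on all 6 arrays. Across all probe sets, 29 held a single value on every array.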
